A study of Zea mays with 6 samples.

Results

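The genes described here are the 142 protein-coding maize genes whose deposited description names a step of fatty acid or triacylglycerol synthesis, out of 34337 protein-coding genes and 49785 genes of all kinds in the count table. They were picked by words alone, such as acetyl-CoA carboxylase, acyl carrier protein, long chain acyl-CoA synthetase or diacylglycerol acyltransferase, and the rule used no measured value. The gene lists were drawn up with earlier results of these data known. RNA came from field-grown kernels with the pericarp peeled off, taken at 13 days after pollination; 3 libraries were WT and 3 were shrek1, whose genotype is labelled Shrek1-/-. The libraries held 17145006 to 20288565 counts. Separate plants or ears for each library, and a shared parent of WT and shrek1 kernels, are stated nowhere in the labels, so p-values measure only the spread between these libraries.

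Plants build fatty acids inside plastids. Acetyl-CoA carboxylase turns acetyl-CoA into malonyl-CoA, the growing chain is carried on acyl carrier protein (ACP), and a cycle of condensation, reduction, dehydration and a further reduction lengthens it. A soluble stearoyl-ACP desaturase sets the first double bond, and thioesterases free the chain for export, where acyl-CoA synthetases charge it with coenzyme A. In the endoplasmic reticulum, acyltransferases then place chains on glycerol 3-phosphate one after another, and diacylglycerol acyltransferase completes triacylglycerol. In maize kernels most of the oil lies in the embryo and the aleurone, whereas the starchy endosperm stores little. Mitochondria run a separate, small fatty acid synthesis on their own ACPs, known mainly as the source of the precursor of lipoic acid.

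Across the genes the balance was towards lower mRNA in shrek1. Of the 142 genes, 106 had enough counts to be tested, 58 of these were lower in shrek1 and 14 were higher at an adjusted p under 0.05 (quasi-likelihood test of edgeR, Benjamini-Hochberg adjustment across the whole table), and 34 were not called. Of all 22681 genes tested, 64.4% were called by the same rule, 32.4% as lower and 32.0% as higher. The lower share was thus 54.7% among these genes, above the share over all genes, and the higher share was 13.2%, below it. The fall was at least 2-fold in 47 genes, a size that 20.0% of all genes tested reached, and the rise was at least 2-fold in 5 genes, a size that 14.2% reached. The median log2 fold change (shrek1 over WT) was -0.67, where that of all genes tested was -0.01. The WT and the shrek1 libraries did not overlap in normalised counts (CPM, counts scaled to a common library size) in 63 tested genes with lower values in shrek1, the 58 lower genes among them, and in the 14 higher genes, where 35.3% and 34.7% of all genes tested had no overlap in these directions. Of the 36 genes that were not tested, 15 had no count in any library. Among the 129 of them that overlap no other gene in the table, 98 were tested, 55 were lower and 12 were higher.

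**Figure D1:**
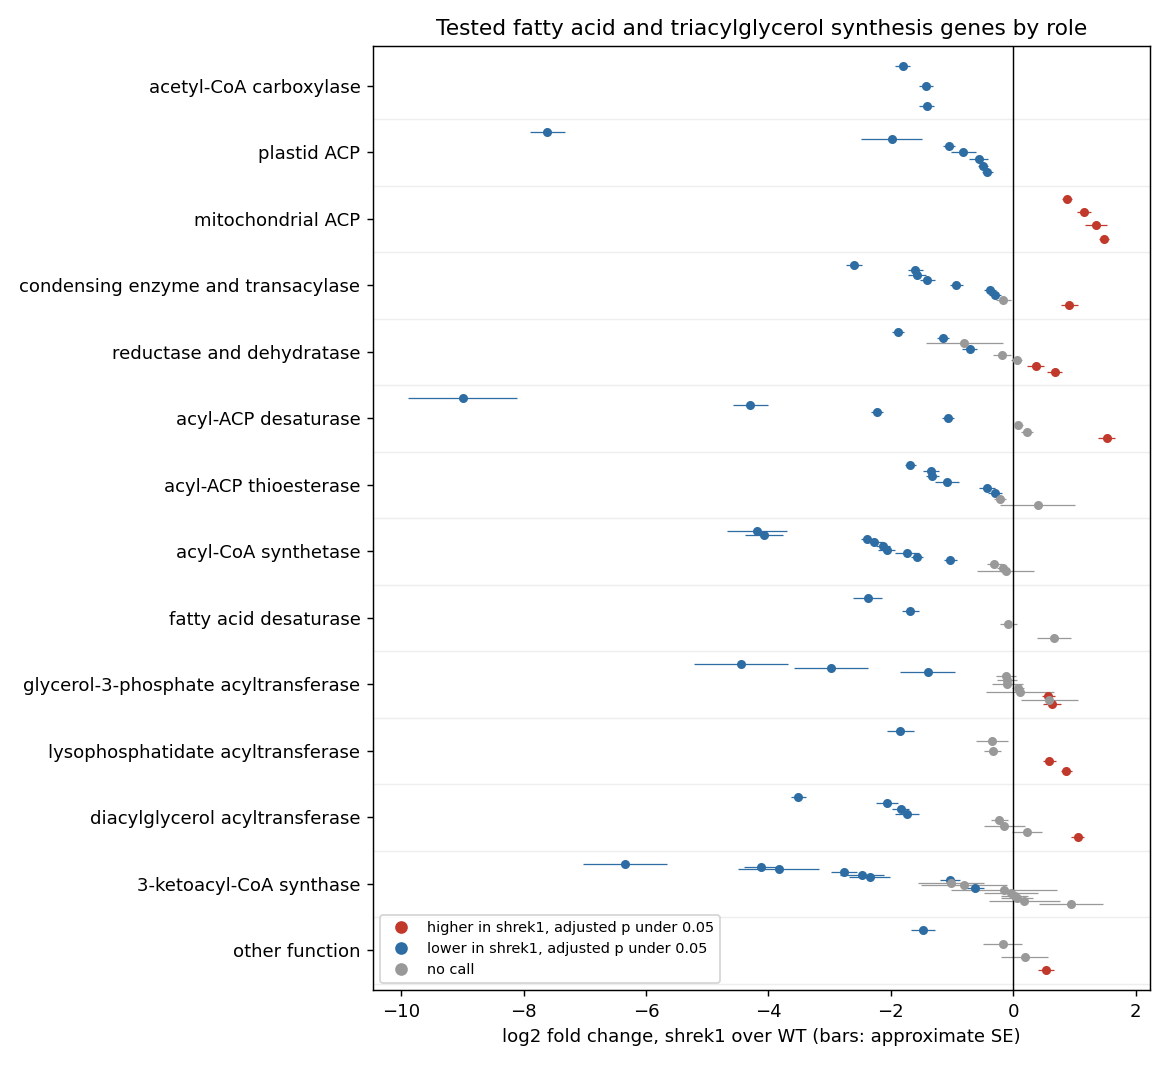
Log2 fold change, shrek1 over WT, of the 106 tested genes by role, each point a gene with its approximate standard error. All 7 tested plastid ACPs lie left of 0 and all 4 mitochondrial ACPs right of it; the leftmost desaturase is LOC100284776, whose fitted value rests on no count in shrek1 and is no bound.

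The word rule let in some genes outside plastid synthesis and oil assembly. The largest such set was 27 3-ketoacyl-CoA synthases, which lengthen chains beyond those the plastid makes, for surface waxes among other lipids. A further 4 genes were matched best to proteins of other pathways, such as a methylcrotonoyl-CoA carboxylase. Without these and the 4 mitochondrial ACPs, 107 genes remained, of which 82 were tested, 49 were lower and 9 were higher, with a median log2 fold change of -0.81. In the steps from acetyl-CoA carboxylase to thioesterase, without matches named mitochondrial, 30 of 41 tested genes were lower (73.2%) and 3 were higher (7.32%). This set kept every acetyl-CoA carboxylase, whatever its compartment. The median was -0.93. Over all genes tested, 32.4% were lower and 32.0% were higher.

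Markers of kernel tissues moved between the genotypes as well. The summed CPM of 7 embryo markers was 258 to 351 in WT and 5.32 to 8.45 in shrek1, with a lower mean in shrek1 for 6 of the 7, and with glb2 and emb5 at 0 in all 3 shrek1 libraries. For 7 aleurone markers it was 435 to 517 in WT and 705 to 886 in shrek1, with a higher mean in shrek1 for 5 of the 7. The rise lay mainly in nkd1 (mean 180 CPM in WT, 377 in shrek1) and nkd2 (74.9 and 200). The other higher ones were vpp1, whose groups overlapped, and the scarce c1 and r1 (means of 0.135 and 0.214 CPM in shrek1). Lower were dek1 (93.3 and 63.7) and cr4 (18.8 and 11.3). For 11 starchy endosperm markers the summed CPM was 95263 to 128257 in WT and 68843 to 94954 in shrek1, with 5 lower and 6 higher in mean. The 5 lower ones were gz27 (mean 37049 CPM in WT, 28234 in shrek1), bz15 (31841 and 12348), gz16 (21584 and 8559), fl2 and wx1. The groups of wx1 overlapped. The 6 higher ones were sh1 (7295 and 17342), bt1 (1416 and 3584), bt2 (891 and 1943), sh2, o2 and pbf1. The 10 transfer layer markers summed to 26.0 to 44.7 CPM in WT and 34.2 to 87.1 CPM in shrek1, so the groups overlapped. In mean, 7 were higher and 1 (mrp1) lower in shrek1, with betl1 and ebe1 at 0 in every library. Among the 7, ebe2 had only 0.0324 CPM in WT and 0.0386 CPM in shrek1. The shrek1 libraries differed widely: in replicate 3, betl3, betl4, betl10 and mn1 lay below every WT library. There mrp1 gave 26.9 of the summed 34.2 CPM. The 3 markers each of the embryo-surrounding region and of maternal or green tissue stayed under 3 CPM in every library. In bulk kernels, fewer cells of a type and less RNA per cell cannot be told apart, and the part of the tissue makeup in the results on lipid genes was not tested.

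At the entry into the pathway, the 3 tested acetyl-CoA carboxylases all fell, where 32.4% of all genes tested were lower. LOC100037775 (chromosome 10, 100241883 to 100263276), one of 2 abundant genes of the large single-chain carboxylase that grasses use in place of the multi-subunit plastid enzyme, stood at 652, 615 and 555 CPM in WT and at 198, 169.9 and 154 CPM in shrek1. Its mean was 607 ± 49.2 CPM (SD, n = 3) in WT and 174 ± 22.3 CPM (SD, n = 3) in shrek1 (log2 fold change -1.81, SE 0.12, adjusted p = 5.75e-07). LOC542319 (ACC1, chromosome 2, 84818640 to 84832994) stood at 626, 606 and 546 CPM in WT and 254, 207 and 202 CPM in shrek1 (log2 fold change -1.42, SE 0.12, adjusted p = 2.42e-06). For both genes every shrek1 library lay far below every WT library. LOC100193636, at 3.10 ± 0.188 FPKM in WT beside 75.2 ± 5.49 FPKM for LOC100037775, fell as well, from 23.2 ± 1.17 to 8.73 ± 0.853 CPM (log2 fold change -1.41, SE 0.12, adjusted p = 4.39e-06). The remaining 3 of the 6 carboxylase genes had too few counts to be tested.

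The carriers of the growing chain split by compartment. All 7 tested plastid ACPs fell and all 4 mitochondrial ACPs rose, where 32.4% of all genes tested were lower and 32.0% higher. LOC103157010 (chromosome 4, 223806521 to 223809424), the most abundant plastid ACP, stood at 292, 338 and 303 CPM in WT and 162, 141 and 149 CPM in shrek1 (log2 fold change -1.04, SE 0.10, adjusted p = 6.58e-06). LOC100126886 (acpt1) fell less, from 172 ± 11.0 to 128 ± 9.20 CPM (log2 fold change -0.42, SE 0.09, adjusted p = 0.00224), and LOC100304167 fell from 98.0 ± 3.30 to 69.9 ± 4.89 CPM (log2 fold change -0.49, SE 0.08, adjusted p = 0.000523). The exception in size was LOC100280455 (chromosome 5, 1117483 to 1118492), which stood at 35.6, 51.4 and 43.9 CPM in WT and only 0.289, 0.0618 and 0.286 CPM in shrek1 (log2 fold change -7.62, SE 0.29, adjusted p = 3.55e-08). It had 5, 1 and 5 counts in the shrek1 libraries, while the other abundant plastid ACPs kept a far larger part of their WT mean. The lesser LOC100193006, LOC103642714 and LOC100284652 fell with log2 fold changes of -0.57, -0.81 and -1.98, and LOC103642714 overlaps a gene on the opposite strand.

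Mitochondrial ACPs carry the acyl chains of mitochondrial fatty acid synthesis and also sit in the respiratory complex I. LOC100282353 (chromosome 9, 154581623 to 154586895) stood at 63.5, 65.2 and 64.0 CPM in WT and 189, 169 and 182 CPM in shrek1 (log2 fold change 1.49, SE 0.08, adjusted p = 2.42e-07). The 3 WT libraries were close together and each shrek1 library was more than 2-fold higher. LOC100286300 rose from 69.9 ± 2.31 to 128 ± 2.47 CPM (log2 fold change 0.88, SE 0.08, adjusted p = 4.62e-06), LOC100283105 from 26.7 ± 4.06 to 59.4 ± 3.49 CPM (log2 fold change 1.15, SE 0.12, adjusted p = 1.18e-05), and LOC100280460 from 15.3 ± 3.98 to 39.0 ± 6.05 CPM (log2 fold change 1.36, SE 0.18, adjusted p = 0.000146). Per length, in the FPKM scale of the deposited table, the mitochondrial genes made up 20.1% ± 0.842 (SD, n = 3) of the summed ACP level in WT and 51.7% ± 0.826 (SD, n = 3) in shrek1. The mitochondrial condensing enzyme LOC100274137, which builds chains on these ACPs, rose too, with 10.1, 8.31 and 9.81 CPM in WT and 18.5, 18.7 and 16.2 CPM in shrek1 (log2 fold change 0.92, SE 0.13, adjusted p = 0.000163). It was the only gene to rise among the 9 tested condensing enzymes and transacylase.

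The plastid condensing enzymes (3-oxoacyl-ACP synthases, KAS) lengthen the chain in each round. KAS III starts the chain, KAS I carries it to palmitate and KAS II on to stearate. LOC100279707, the most abundant KAS I, stood at 211, 265 and 251 CPM in WT and 133, 127 and 121 CPM in shrek1 (log2 fold change -0.93, SE 0.10, adjusted p = 2.4e-05), with no overlap between the groups. The other KAS I gene, LOC100279917, fell by 0.38 on the log2 scale (SE 0.10). The 3 KAS II genes LOC100193451, LOC100280304 and LOC100383498 fell further, with log2 fold changes of -1.60, -1.57 and -1.40. Of the 2 KAS III genes, LOC100280714 stood at 33.2, 36.1 and 37.5 CPM in WT and 6.72, 5.19 and 5.60 CPM in shrek1 (log2 fold change -2.61, SE 0.13, adjusted p = 1.38e-07), whereas LOC100280787 had 53.4 ± 4.01 CPM in WT and 47.8 ± 7.80 CPM in shrek1 and was not called (log2 fold change -0.16, SE 0.12, adjusted p = 0.27). LOC100280787 passed the threshold downwards under 3 of 16 alternative settings. The difference between the paired KAS III genes was not tested as such. The malonyl transferase LOC100283964, which loads malonyl units onto ACP, had 106 ± 10.7 CPM in WT and 86.1 ± 8.04 CPM in shrek1 and a small fall (log2 fold change -0.29, SE 0.10, adjusted p = 0.029) that lost its call without WT replicate 2, WT replicate 3, shrek1 replicate 1 or shrek1 replicate 3 (adjusted p 0.0716, 0.0699, 0.0729 and 0.122).

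Of the 8 tested reductases and dehydratases, 3 were lower, 2 were higher and 3 were not called, shares near the 32.4% lower and 32.0% higher of all genes tested. The 3-oxoacyl-ACP reductase LOC100273168 (fab1), which performs the first reduction, stood at 129, 144 and 139.9 CPM in WT and 39.8, 38.9 and 33.2 CPM in shrek1 (log2 fold change -1.88, SE 0.10, adjusted p = 1.61e-07). The dehydratase LOC100273566 fell from 122 ± 10.6 to 55.2 ± 4.79 CPM (log2 fold change -1.15, SE 0.10, adjusted p = 4e-06). Of the enoyl-ACP reductases, which close each round, LOC100193519 stood at 248, 293 and 256 CPM in WT and 188, 161 and 138 CPM in shrek1 (log2 fold change -0.71, SE 0.12, adjusted p = 0.0005), while LOC100192829 had 91.6 ± 6.88 CPM in WT and 95.3 ± 4.32 CPM in shrek1 (log2 fold change 0.06, SE 0.09, adjusted p = 0.587). LOC100286139, a second reductase at 3.29 ± 0.254 FPKM in WT beside 106 ± 8.21 FPKM for LOC100273168, rose from 10.8 ± 1.08 to 17.3 ± 0.919 CPM (log2 fold change 0.68, SE 0.13, adjusted p = 0.000875). A second dehydratase, LOC100283232, passed the threshold upwards (log2 fold change 0.37, SE 0.14, adjusted p = 0.0379) but missed it under 11 of 16 alternative settings.

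The stearoyl-ACP desaturases, which turn stearate into oleate on ACP, changed in opposite directions. LOC100273826 (chromosome 8, 171657313 to 171658809) stood at 374, 281 and 262 CPM in WT and 886, 829.8 and 929.6 CPM in shrek1. Its mean rose from 306 ± 60.0 to 882 ± 50.1 CPM (SD, n = 3; log2 fold change 1.53, SE 0.14, adjusted p = 5.47e-06), and the lowest shrek1 library was more than 2-fold above the highest WT library. LOC100191672 (SAD1, chromosome 3) stood at 346, 399 and 374 CPM in WT and 169, 172 and 194 CPM in shrek1 (log2 fold change -1.07, SE 0.10, adjusted p = 6.01e-06), again with no overlap, but lower. LOC100192652 (chromosome 8) fell further, from 139 ± 14.8 to 29.8 ± 1.04 CPM (log2 fold change -2.22, SE 0.10, adjusted p = 8.59e-08). LOC100283843 had 150.5 ± 4.48 CPM in WT and 159 ± 10.9 CPM in shrek1 and was not called (log2 fold change 0.08, SE 0.09, adjusted p = 0.462).

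Per length, LOC100273826 held 33.4% ± 4.77 (SD, n = 3) of the family's summed FPKM in WT, beside 35.5% ± 3.85 for LOC100191672, and the 2 shares were within their spread. In shrek1 LOC100273826 held 71.7% ± 1.26 and LOC100191672 12.5% ± 0.545. Among all 142 genes it had the highest FPKM in shrek1, 627 ± 30.6 (SD, n = 3), followed by the mitochondrial ACP LOC100282353 at 240.2 ± 12.1 and the plastid ACP LOC103157010 at 204 ± 14.1. In WT the order was led by LOC103157010 at 429.9 ± 42.1 FPKM, ahead of the thioesterase LOC100191192 at 249.7 ± 15.7, LOC100191672 at 234 ± 21.9 and LOC100273826 at 221 ± 39.0, and those 3 did not differ beyond their spread. The family's summed CPM was 1012 ± 55.2 in WT and 1286 ± 52.1 in shrek1 (SD, n = 3), without overlap between the groups. A pair of scarce relatives, described as desaturases of other acyl-ACP chains, were almost lost: LOC103638337 fell from 8.24 ± 1.30 to 0.413 ± 0.119 CPM (log2 fold change -4.30, SE 0.29, adjusted p = 6.69e-07), and LOC100284776 had counts in all 3 WT libraries, 2.82, 5.11 and 2.50 CPM, and none in shrek1, at least 19.7-fold lower against a floor of 3 counts per library.

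**Figure D2:**
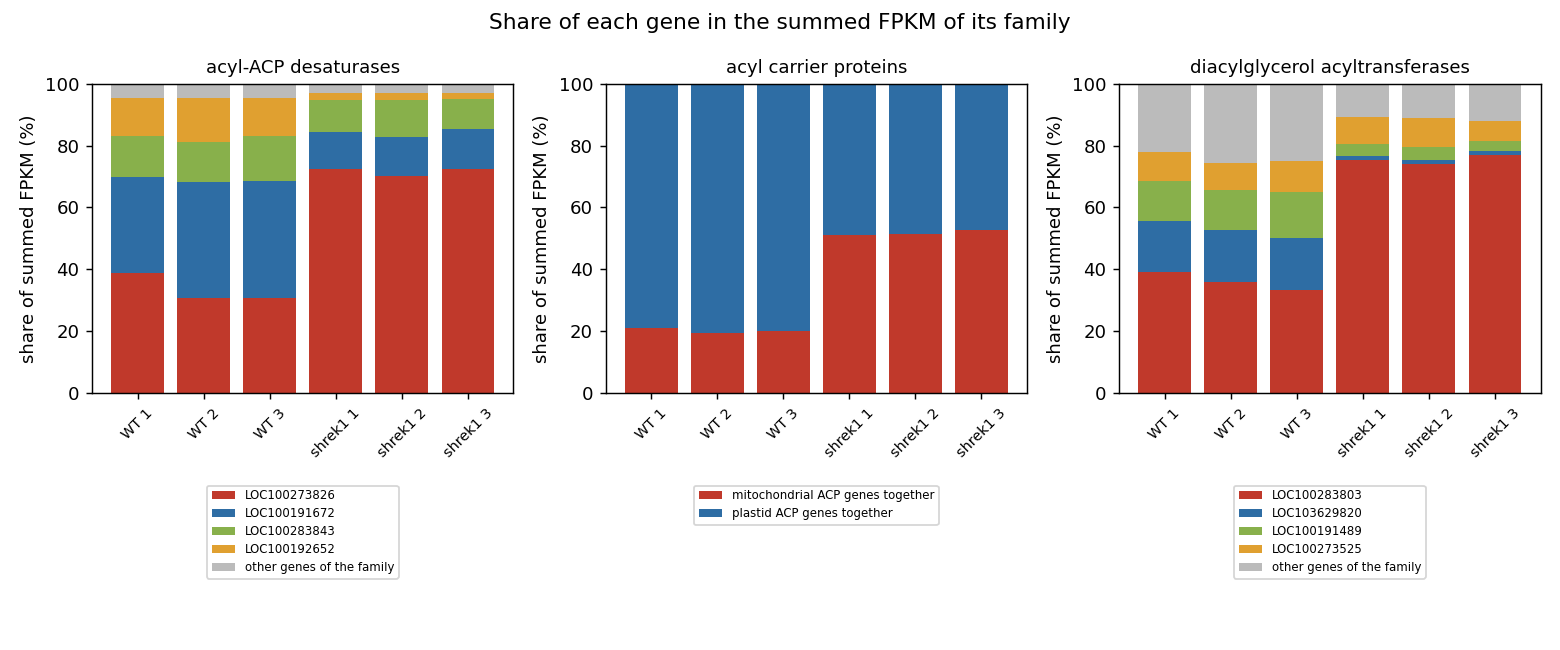
Share of each gene in the summed FPKM (%) of its family, 1 bar per library. LOC100273826 goes from 33.4 to 71.7% of the acyl-ACP desaturases, the mitochondrial genes from 20.1 to 51.7% of the acyl carrier proteins, and LOC100283803 from 36.1 to 75.3% of the diacylglycerol acyltransferases (means of 3 libraries).

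Thioesterases end synthesis in the plastid by cutting the chain from ACP. The oleoyl-ACP type (FatA) LOC100191192 held 65.4% ± 0.692 (SD, n = 3) of the family's summed FPKM in WT and 52.4% ± 1.02 in shrek1. It stood at 376, 374 and 336 CPM in WT and 117, 112 and 110.2 CPM in shrek1 (log2 fold change -1.68, SE 0.09, adjusted p = 1.88e-07), so the libraries within a group differed little and the groups were far apart. LOC100284340, the second oleoyl type, fell from 102 ± 11.2 to 40.8 ± 4.35 CPM (log2 fold change -1.32, SE 0.11, adjusted p = 3.03e-06). Of the palmitoyl types (FatB), which release saturated chains, LOC103638097 fell from 36.5 ± 2.60 to 14.4 ± 2.15 CPM (log2 fold change -1.34, SE 0.13, adjusted p = 8.11e-06). LOC100283590, another FatB gene, had 47.4 ± 1.71 CPM in WT and 40.8 ± 4.49 CPM in shrek1 and was not called (log2 fold change -0.21, SE 0.10, adjusted p = 0.0826). It passed the threshold downwards under 4 of 16 alternative settings. Small falls in LOC100281497 (log2 fold change -0.29, SE 0.12, adjusted p = 0.0479) and LOC100284999 (log2 fold change -0.43, SE 0.13, adjusted p = 0.0147) were lost under 5 and 2 of 16 alternative settings. In all, 6 of 8 tested thioesterases were lower (75.0%) and none was higher, where 32.4% and 32.0% of all genes tested were.

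Long chain acyl-CoA synthetases hand the freed chains to the acyltransferases, to waxes or to breakdown. They had the lowest median of the groups with more than 3 tested genes, -1.90 on the log2 scale. Among 12 tested genes, 9 were lower (75.0%) and none was higher, against 32.4% and 32.0% of all genes tested. LOC103654554, matched to the plastid-envelope synthetase LACS9, stood at 103, 114 and 108 CPM in WT and 22.0, 21.1 and 18.9 CPM in shrek1 (log2 fold change -2.39, SE 0.09, adjusted p = 4.04e-08). LOC100304373, matched to LACS8, fell from 66.7 ± 3.42 to 15.3 ± 1.99 CPM (log2 fold change -2.12, SE 0.11, adjusted p = 1.85e-07). The peroxisomal LACS6 type, which feeds breakdown, fell as well, with log2 fold changes of -1.03 in LOC100281538 and -2.06 in LOC100281546. The other 3 synthetases were not called, among them LOC103640823, a second LACS9 match, with 26.0 ± 3.54 CPM in WT and 21.0 ± 1.32 CPM in shrek1 (log2 fold change -0.31, SE 0.12, adjusted p = 0.0501), and LOC100383523, a LACS4 match, with 33.9 ± 0.336 CPM in WT and 30.1 ± 0.415 CPM in shrek1 (log2 fold change -0.17, SE 0.09, adjusted p = 0.109). LOC103640823 passed the threshold downwards under 5 of 16 alternative settings and LOC100383523 under 3. The LACS1 matches LOC100276554 and LOC100279270, known in Arabidopsis for surface lipids, had log2 fold changes of -4.08 and -4.19, both called, but they overlap each other on opposite strands and no source used here states whether the counting kept strand.

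Membrane-bound desaturases add further double bonds. LOC100282744 (fad2), an endoplasmic reticulum enzyme that makes linoleate, stood at 44.6, 55.1 and 39.2 CPM in WT and 15.5, 13.4 and 14.3 CPM in shrek1 (log2 fold change -1.68, SE 0.14, adjusted p = 2.52e-06). LOC542222 (fad7), a plastid omega-3 desaturase, stood at 11.8, 13.8 and 20.7 CPM in WT and 3.42, 2.97 and 2.51 CPM in shrek1 (log2 fold change -2.38, SE 0.24, adjusted p = 1.19e-05). Both fell with no overlap. The plastid omega-6 gene LOC100101547 (fad6), which overlaps a gene on the same strand, had 20.7 ± 3.48 CPM in WT and 19.6 ± 1.71 CPM in shrek1 (log2 fold change -0.08, SE 0.14, adjusted p = 0.64), and LOC103644592 (fad8) had 5.21 ± 2.31 CPM in WT and 8.29 ± 1.07 CPM in shrek1 (log2 fold change 0.66, SE 0.28, adjusted p = 0.0596), which came under the threshold without WT replicate 3 (log2 fold change 1.04, adjusted p = 0.00266), with the replicate number as a block (log2 fold change 0.73, adjusted p = 0.0180) and without a low-count filter (adjusted p = 0.0496). The most abundant fad2 gene of the kernel, LOC100191328, was spelt differently in the table and is described with the glycerolipid genes.

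**Figure D3:**
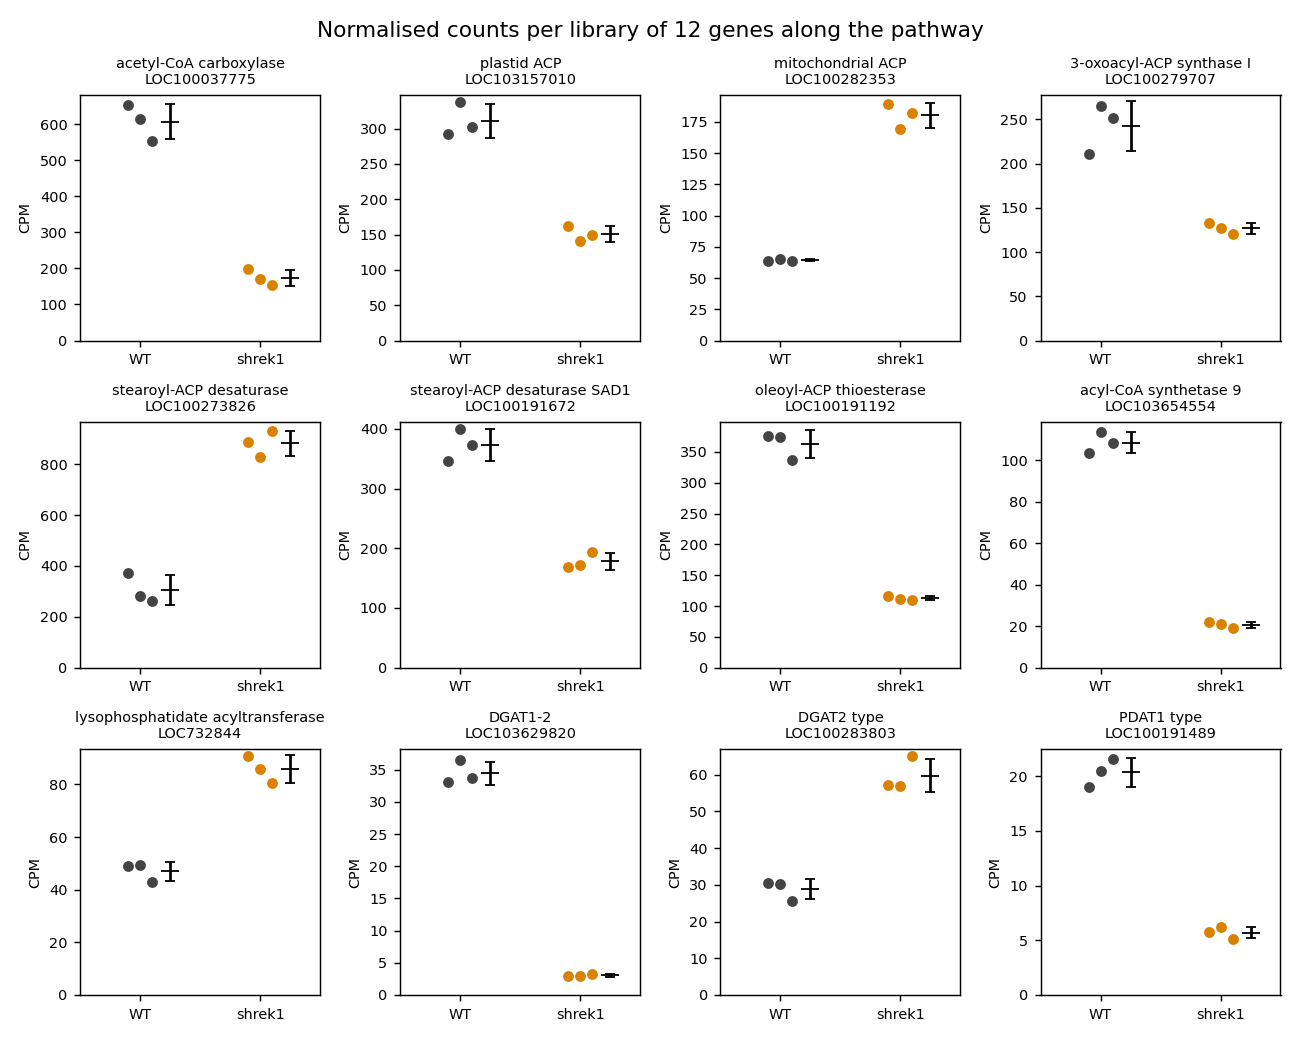
Normalised CPM of 12 genes in each of the 3 WT and 3 shrek1 libraries (points), with the mean and SD beside them, on linear axes from 0. In 8 panels every shrek1 library lies below every WT library; in the panels of LOC100282353, LOC100273826, LOC732844 and LOC100283803 it lies above.

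Glycerol-3-phosphate acyltransferases place the first chain of a glycerolipid. Of 11 tested genes, 3 were lower (27.3%) and 2 were higher (18.2%), where 32.4% and 32.0% of all genes tested were. The median log2 fold change among the 11 was -0.09. The 2 that rose were LOC100382209, from 27.0 ± 3.33 to 40.2 ± 0.370 CPM (log2 fold change 0.58, SE 0.11, adjusted p = 0.000832), and LOC103650549, from 17.5 ± 2.77 to 27.1 ± 3.65 CPM (log2 fold change 0.63, SE 0.15, adjusted p = 0.00352). LOC100382209 overlaps genes on both strands, and LOC103650549 lost its call when libraries were scaled by their totals alone (adjusted p = 0.0897). The chloroplast enzyme LOC100285746 was not called, with 16.0 ± 1.49 CPM in WT and 14.9 ± 3.23 CPM in shrek1 (log2 fold change -0.10, SE 0.16, adjusted p = 0.599). The 3 that fell, LOC100272827, LOC100382183 and LOC100281851, all had under 2 CPM in WT, and LOC100281851 had a WT level 25.8 times that of shrek1 (95% counting interval 6.84 to 218), with few reads in shrek1. The call of LOC100272827 was lost without WT replicate 2 or shrek1 replicate 1 (adjusted p 0.0500131 and 0.0662).

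Lysophosphatidate acyltransferases add the second chain. LOC732844 (pls1) stood at 48.9, 49.3 and 42.8 CPM in WT and 90.9, 86.0 and 80.4 CPM in shrek1 (log2 fold change 0.87, SE 0.09, adjusted p = 1.66e-05), with every shrek1 library well above every WT library. Its relative LOC100282234 rose from 35.7 ± 4.39 to 53.8 ± 2.98 CPM (log2 fold change 0.59, SE 0.11, adjusted p = 0.000664), though it overlaps genes on both strands. LOC100285585 fell from 8.03 ± 1.29 to 2.24 ± 0.434 CPM (log2 fold change -1.84, SE 0.22, adjusted p = 4.23e-05). The plastid enzyme LOC100193515 had 16.7 ± 1.37 CPM in WT and 13.2 ± 1.78 CPM in shrek1 and was not called (log2 fold change -0.33, SE 0.14, adjusted p = 0.0558), but passed the threshold downwards under 9 of 16 alternative settings. The summed CPM of the family was 113.5 ± 2.52 in WT and 159.9 ± 3.74 in shrek1 (SD, n = 3).

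Diacylglycerol acyltransferase (DGAT) commits diacylglycerol to oil. In this group of 8 tested genes, 4 were lower (50.0%), 1 was higher (12.5%) and 3 were not called. The words that formed the group also admit matches named WSD1 or At3g26840, so it can be wider than DGAT. Its members LOC100273076 and LOC100277398 are counted but not described here. The shares over all genes tested were 32.4% lower and 32.0% higher. LOC103629820 (DGAT1-2, chromosome 6, 115183673 to 115192012), known in maize as the gene behind a major oil-content locus, stood at 33.2, 36.5 and 33.8 CPM in WT and 2.89, 2.91 and 3.26 CPM in shrek1. Its mean fell from 34.5 ± 1.78 to 3.02 ± 0.206 CPM (SD, n = 3; log2 fold change -3.51, SE 0.13, adjusted p = 2.27e-08), and its libraries varied little within each group. The second DGAT1 gene, LOC100383910, fell from 11.8 ± 0.817 to 2.82 ± 0.448 CPM (log2 fold change -2.06, SE 0.18, adjusted p = 4.22e-06). LOC100283803 (chromosome 4, 167183677 to 167186156), a DGAT2 type, stood at 30.5, 30.2 and 25.6 CPM in WT and 57.3, 57.1 and 65.0 CPM in shrek1 (log2 fold change 1.06, SE 0.10, adjusted p = 9.44e-06), higher in every shrek1 library. Another DGAT2 type, LOC100217122, fell from 9.54 ± 0.772 to 2.86 ± 0.499 CPM (log2 fold change -1.74, SE 0.19, adjusted p = 2.29e-05), so the 2 tested DGAT2 genes moved in opposite directions. Phospholipid:diacylglycerol acyltransferase, which takes its chain from a membrane lipid, was lower in LOC100191489, with 19.0, 20.4 and 21.6 CPM in WT and 5.73, 6.18 and 5.14 CPM in shrek1 (log2 fold change -1.84, SE 0.14, adjusted p = 1.22e-06). Its relative LOC100273525 had 13.0 ± 0.497 CPM in WT and 11.1 ± 1.53 CPM in shrek1 (log2 fold change -0.23, SE 0.14, adjusted p = 0.184). LOC100273525 passed the threshold downwards under 2 of 16 alternative settings.

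Per length, LOC100283803 made up 36.1% ± 2.99 (SD, n = 3) of the summed FPKM of this group in WT and 75.3% ± 1.45 in shrek1. DGAT1-2 made up 16.6% ± 0.240 in WT and 1.46% ± 0.0160 in shrek1. The group's summed FPKM was 60.6 ± 4.01 in WT and 59.2 ± 3.12 in shrek1 (SD, n = 3), and the libraries of the groups overlapped. Its summed CPM, in which long genes weigh more, was 125.3 ± 5.86 in WT and 93.0 ± 4.05 in shrek1 (SD, n = 3).

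Among the 3-ketoacyl-CoA synthases, 8 of 16 tested genes were lower (50.0%, where 32.4% of all genes tested were) and none was higher. LOC103630762, which had too few counts to be tested, with 3, 2 and 1 counts in WT and 13, 11 and 8 in shrek1, was tested and called higher without a low-count filter and in 4 of the 6 fits that left out 1 library. LOC542018, the most abundant, stood at 38.4, 45.5 and 42.2 CPM in WT and 29.2, 31.5 and 20.9 CPM in shrek1 (log2 fold change -0.63, SE 0.15, adjusted p = 0.00363). LOC100283031 and LOC100282655 fell from 19.7 ± 4.70 to 2.90 ± 0.325 CPM (log2 fold change -2.76, SE 0.21, adjusted p = 1.64e-06) and from 16.8 ± 3.34 to 0.951 ± 0.424 CPM (log2 fold change -4.12, SE 0.29, adjusted p = 9.26e-07). LOC100382314 had a WT level 95.9 times that of shrek1 (95% counting interval 26.2 to 797), with 2.60, 5.96 and 2.69 CPM in WT. Of the genes with another function, the methylcrotonoyl-CoA carboxylase LOC100280665, an enzyme of leucine breakdown, fell from 26.1 ± 0.261 to 9.37 ± 2.91 CPM (log2 fold change -1.47, SE 0.19, adjusted p = 7.78e-05). LOC100272846, described as an acyl-ACP UDP-N-acetylglucosamine acyltransferase, had 15.7 ± 0.452 CPM in WT and 22.8 ± 3.02 CPM in shrek1 and rose (log2 fold change 0.54, SE 0.12, adjusted p = 0.00304), a call lost when libraries were scaled by their totals alone (adjusted p = 0.117).

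The surrounding lipid pathway was read from 150 further genes chosen by words in their descriptions, of which 131 were tested, 69 (52.7%) were lower and 27 (20.6%) were higher, against 32.4% and 32.0% of all genes tested, with a median log2 fold change of -0.52. They fell into 5 lists. In the list on the supply of carbon to plastid synthesis, 23 of 30 tested genes were lower and 3 were higher. The fall was at least 2-fold in 17 genes and the rise in 1, sizes that 20.0% and 14.2% of all genes tested reached. The highest log2 fold change in the list was 2.34. This list holds the genes matched to WRINKLED1 (WRI1), a transcription factor that switches on plastid fatty acid synthesis in seeds. LOC100217237 (EREB85, chromosome 2) stood at 136, 216 and 123 CPM in WT and 27.6, 17.0 and 14.3 CPM in shrek1 (log2 fold change -3.01, SE 0.32, adjusted p = 0.000193). LOC100193098 (EREB20, chromosome 4) stood at 93.3, 136 and 106 CPM in WT and 44.7, 26.1 and 18.5 CPM in shrek1 (log2 fold change -1.91, SE 0.32, adjusted p = 0.00186). The WT libraries of both were spread widely, yet neither gene overlapped between the groups. The scarce LOC103651087 and LOC103635988 fell with log2 fold changes of -3.81 and -1.36 (adjusted p = 0.000208 and 0.016); the call of LOC103635988 was lost without WT replicate 1, shrek1 replicate 2 or shrek1 replicate 3 (adjusted p 0.0536, 0.0559 and 0.0526).

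Plastid pyruvate kinase and pyruvate dehydrogenase make the acetyl-CoA that the carboxylase uses. Of 6 tested pyruvate kinase genes 5 fell and 1 rose, and of 8 tested pyruvate dehydrogenase genes 7 fell and none rose. The shares over all genes tested were 32.4% lower and 32.0% higher. The dehydrogenase alpha gene LOC100272834 stood at 323, 401 and 373 CPM in WT and 161, 148 and 128 CPM in shrek1 (log2 fold change -1.33, SE 0.12, adjusted p = 4.43e-06). The beta gene LOC100282233 stood at 121, 168 and 138 CPM in WT and 22.2, 20.6 and 15.3 CPM in shrek1 (log2 fold change -2.88, SE 0.17, adjusted p = 6.17e-07). The kinase LOC100273990 fell from 325 ± 7.02 to 144 ± 13.1 CPM (log2 fold change -1.17, SE 0.09, adjusted p = 2.24e-06), and the kinase that rose, LOC103644177, went from 14.1 ± 2.26 to 24.4 ± 4.65 CPM (log2 fold change 0.79, SE 0.16, adjusted p = 0.00165). The 2 phosphoenolpyruvate translocators, which bring carbon into the plastid, diverged: LOC100037776 (ppt1) fell from 243 ± 25.6 to 84.8 ± 16.5 CPM (log2 fold change -1.52, SE 0.15, adjusted p = 1.11e-05) and LOC542344 (ppt2) rose from 112 ± 7.05 to 165 ± 12.6 CPM (log2 fold change 0.56, SE 0.09, adjusted p = 0.000385). The glucose 6-phosphate translocator LOC542599 (gpt) fell by 0.51 on the log2 scale (SE 0.10).

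**Figure D4:**
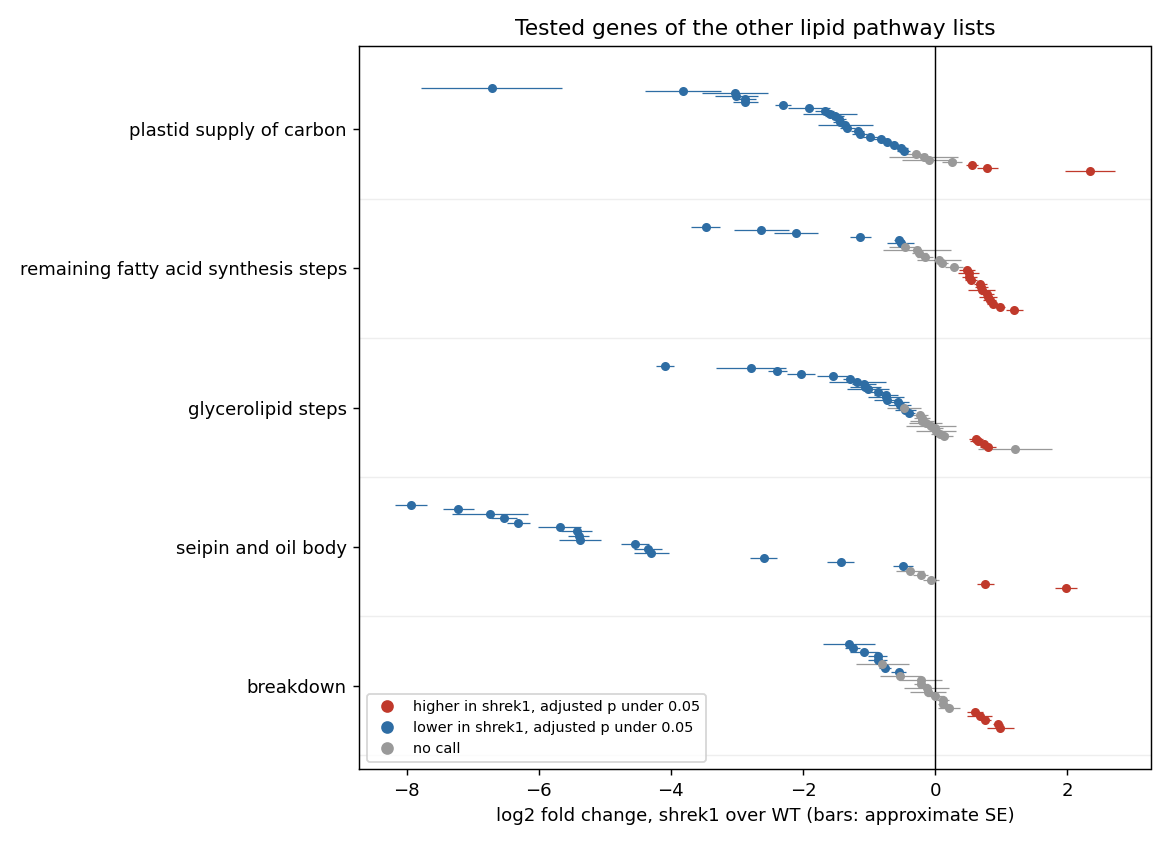
Log2 fold change, shrek1 over WT, of the 131 tested genes of the other lipid lists, each point a gene with its approximate standard error. The oil body list reaches furthest left, with a median of -4.45, and the list of remaining fatty acid synthesis steps has most of its called genes right of 0.

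In the list of glycerolipid steps, 18 of 33 tested genes were lower (54.5%) and 4 were higher (12.1%), against 32.4% and 32.0% of all genes tested. The glycerol-3-phosphate dehydrogenase LOC100284124 (GPDH4), which makes the glycerol backbone, stood at 197, 224 and 219 CPM in WT and 15.1, 10.5 and 12.1 CPM in shrek1 (log2 fold change -4.09, SE 0.14, adjusted p = 1.66e-08). The FAD2 gene LOC100191328 went the other way and stood at 686, 664 and 552 CPM in WT and 986, 904 and 1106 CPM in shrek1 (log2 fold change 0.66, SE 0.12, adjusted p = 0.000822). Per length it was at 309 ± 33.9 FPKM in WT and 477 ± 44.9 FPKM in shrek1, far above LOC100282744, the fad2 gene that fell, at 24.3 ± 4.61 and 7.40 ± 0.492 FPKM. LOC100278421, which interconverts phosphatidylcholine and diacylglycerol, fell from 37.1 ± 3.65 to 7.08 ± 1.10 CPM (log2 fold change -2.39, SE 0.14, adjusted p = 3.18e-07). The phosphatidate phosphatase LOC103652775 had 71.7 ± 4.16 CPM in WT and 54.8 ± 2.18 CPM in shrek1 and a small fall (log2 fold change -0.39, SE 0.08, adjusted p = 0.00213), lost with a gene-length offset (adjusted p = 0.284).

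In the list on the oil body, 15 of 20 tested genes were lower and 2 were higher. Over all genes tested, 32.4% were lower and 32.0% were higher. Oleosins coat the stored oil, and all 7 tested oleosins fell. LOC542263 (ole1) stood at 3546, 4521 and 3593 CPM in WT and 103, 87.5 and 86.8 CPM in shrek1 (log2 fold change -5.40, SE 0.16, adjusted p = 1.18e-08). The log2 fold change was -6.52 for LOC100280594, -7.93 for LOC100280642, -7.22 for LOC100286327, -5.68 for LOC100286352, -4.29 for LOC100280608 and -6.74 for LOC100280859. Among the tested synthesis genes, the log2 fold change was below -4.29 in LOC100284776, LOC100280455, LOC100382314, LOC100281851 and LOC103638337. Between the same libraries, the summed embryo markers were also lower in shrek1 and the summed aleurone markers were higher. The summed starchy endosperm markers were lower too, but 6 of those 11 markers were higher in mean. A link of these sums to the oleosins was not tested. The oil-body peroxygenases (caleosins) split, with LOC100216957 falling from 418 ± 57.3 to 5.25 ± 1.03 CPM (log2 fold change -6.31, SE 0.17, adjusted p = 1e-08) and LOC100382264 rising from 14.7 ± 2.11 to 58.3 ± 12.5 CPM (log2 fold change 1.98, SE 0.17, adjusted p = 4.85e-06).

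**Figure D5:**
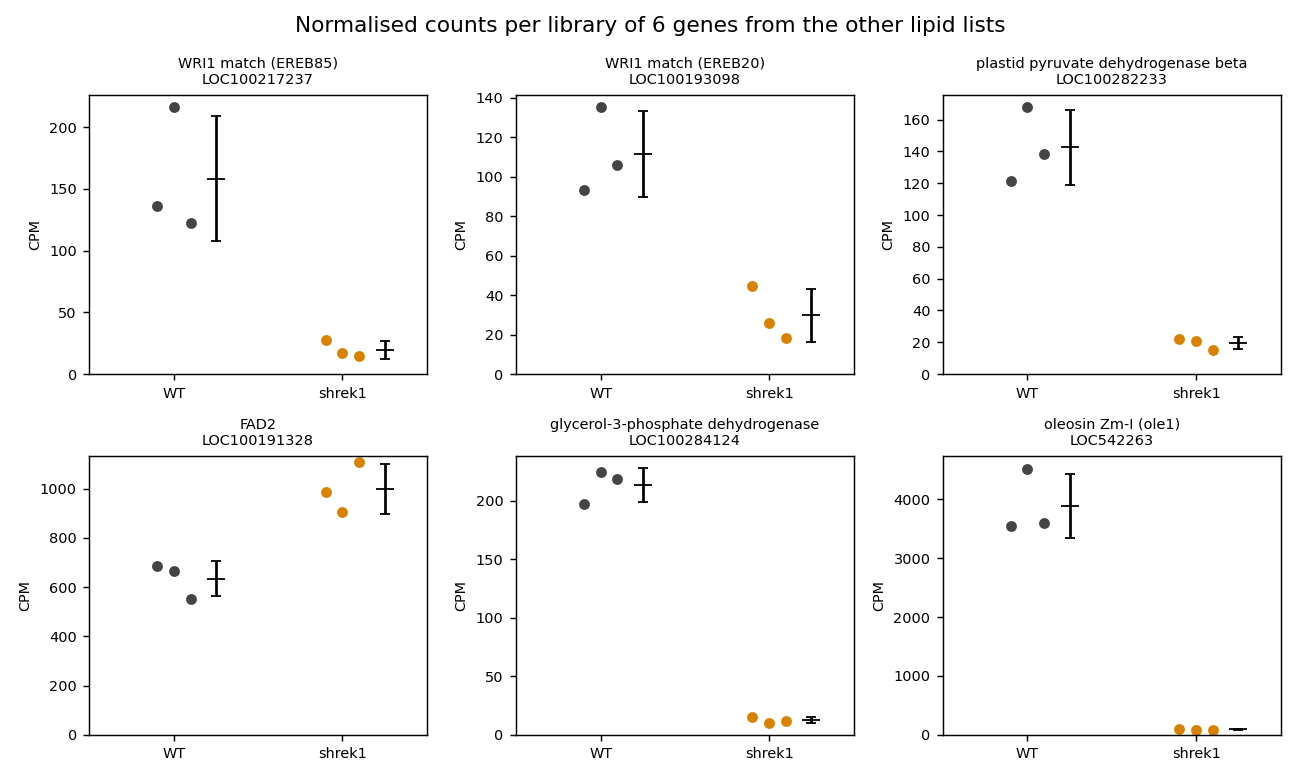
Normalised CPM of 6 genes of the other lipid lists in each WT and shrek1 library (points), with the mean and SD beside them, on linear axes from 0. The shrek1 libraries lie below all WT libraries except for LOC100191328 (FAD2), where all 3 lie above.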

How the data were processed

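RNA-seq libraries of peeled maize kernels were labelled WT (3) and shrek1 (3), and grouped by those labels. The deposited gene table holds raw counts per gene, and a second deposited table holds FPKM, which the authors made from the same counts, the gene length in the table and 1 library size per library. The submitters' processing notes name the aligner HISAT2, version 2.0.5, and the counter featureCounts, version 1.5.0-p3; the strand setting and genome build are not stated in the labels. Of the 142 genes, 133 have the same start in the reference table of the RefSeq maize annotation, which gave older symbols and chromosome numbers; all positions come from the deposited table. The gene lists, the rule for named genes and the tests were chosen with earlier results of these data known.

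The analysis of the counts used edgeR 4.0.16 (R 4.3.3). Genes with low counts were removed with filterByExpr, libraries were scaled with TMM factors, and the groups were compared with the two-sided quasi-likelihood test, with Benjamini-Hochberg adjustment over 22681 genes and a threshold of 0.05. Counts were also simulated for this comparison (22681 genes, 200 changed, 3 simulations). On average the test called 7.44% of genes changed by 0.5 on the log2 scale and 62.2% of those changed by 1. It called 90.5% of those changed by 2 and 0.0770% of unchanged genes. The simulation changed far fewer genes than the 64.4% called in the real data, so these rates need not hold there. TMM factors also enter the CPM values. Standard errors are approximate, being the fold change over the root of F. The library totals were 17145006 to 20288565 counts. With the library sizes scaled by TMM factors, a floor of 3 counts lay at 0.141 to 0.185 CPM. The floor and the counting intervals cover counting error only. Levels were compared between genes only in FPKM. The named genes are, per group of steps, the 2 with most CPM and the called genes with the largest rise and fall, the 8 largest rises and falls of all these genes, each at 5 CPM or more in the higher group and without overlap, and in the other lipid lists the called gene with most CPM in each direction with every tested WRI1 match and oleosin; the others were named after their values were seen. Alternatives were DESeq2 1.42.0 (size factors and test), other scaling, no filter, limma 3.58.1 on log2(FPKM + 1) and log2(FPKM + 0.1), a gene-length offset, a replicate block and leaving out each library.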

Additional observations from a re-analysis of the deposited data

How the results depend on the processing

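The counts of called genes over all synthesis genes and over all other lipid genes stayed within 1.5-fold of those reported under all 16 alternative settings. Synthesis genes numbered 11 to 15 higher and 53 to 66 lower, and those of the other lipid lists 22 to 28 higher and 62 to 82 lower. Leaving out 1 library at a time gave 14 to 15 higher and 55 to 63 lower synthesis genes, and 26 to 28 higher and 62 to 68 lower genes of the other lists. Scaling by library totals alone moved the median log2 fold change of all genes to -0.30 and upper-quartile scaling moved it to -0.15, and changes under them are relative to those values. Counts within small groups moved more. The lower lysophosphatidate acyltransferases went from 1 to 2 under 9 settings and the higher reductases and dehydratases from 2 to 1 under 11. The higher acyl-ACP desaturases went from 1 to 2 without shrek1 replicate 1, the higher 3-ketoacyl-CoA synthases from 0 to 1 under 5 settings and the higher membrane-bound desaturases from 0 to 1 under 3. The higher glycerol-3-phosphate acyltransferases went from 2 to 1 and the higher genes of other function from 1 to 0 with library totals alone, and the 3 lower ones to 0 with limma at a mean FPKM of at least 1, which leaves fewer genes to test. With the replicate number as a replicate block, 14 synthesis genes were higher and 58 lower, and 28 and 69 genes of the other lists; the deviations of same-numbered libraries correlated at 0.0960, -0.0493 and 0.0280, so the numbers were not taken to pair the libraries.

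Of 110 named genes with a call, 10 lost it under some setting and none changed sign. Of 12 without a call, 7 gained one under some setting and 4 crossed 0. LOC100283843 was at -0.21 with library totals alone and -0.063 with upper-quartile scaling. LOC100192829 was at -0.23 and -0.082 under these, and between -0.075 and 0.11 with 1 library left out. With 1 library left out, LOC100101547 was between -0.19 and 0.0084 and LOC100285746 between -0.28 and 0.0031; the latter was at 0.0019 with a gene-length offset. The causes were not tested. At this depth, 36 synthesis genes had too few counts to be tested.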

Other observations

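Genes that carry fatty acids after synthesis were more often higher in shrek1 than lower. In the list of remaining fatty acid synthesis steps, 13 of 26 tested genes were higher (50.0%) and 6 were lower (23.1%), where 32.0% and 32.4% of all genes tested were called in these directions. Of the FATTY ACID EXPORT genes, some of whose Arabidopsis relatives pass fatty acids across the plastid envelope, 8 of 13 tested were higher and 3 were lower. LOC100193823 stood at 103, 99.1 and 93.1 CPM in WT and at 146, 162 and 173 CPM in shrek1, a rise of 0.70 on the log2 scale (SE 0.09). LOC100217059 rose by 0.98 (SE 0.09). Of the acyl-CoA-binding genes, 5 of 9 tested were higher and 1 was lower, LOC100193362, which fell by 0.55 on the log2 scale (SE 0.08). The fatty-acid-binding gene LOC100283211 had 22.5 ± 5.32 CPM in WT and 2.02 ± 0.290 CPM in shrek1 (SD, n = 3).

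In the list on lipid breakdown, 7 of 22 tested genes were lower (31.8%) and 5 were higher (22.7%), the former share close to the 32.4% and the latter below the 32.0% of all genes tested. The wording also caught 3 tested isopropylmalate synthases, enzymes of leucine synthesis, and all 3 were higher, so that 2 of the 19 other tested genes were higher. Of the peroxisomal beta-oxidation enzymes, the multifunctional protein LOC100285945 fell by 0.75 (SE 0.09) and the acyl-CoA oxidase LOC100191469 by 0.87 (SE 0.14), while the thiolase LOC100274263 rose by 0.76 (SE 0.09) on the log2 scale. The oil lipase LOC103636624 (SDP1 match) fell by 0.55 (SE 0.11). Malate synthase LOC542252 had 38.5 ± 2.12 CPM in WT (SD, n = 3) and 11.3, 8.47 and 26.7 CPM in shrek1, where replicate 3 was the highest. Its call (adjusted p = 0.0235 by edgeR) was lost without a low-count filter and without WT replicate 1, WT replicate 2 or shrek1 replicate 1 (adjusted p 0.0526 to 0.0958).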
